A study of Mus musculus with 8 samples.

Results

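The genes described here are 10 genes of T cells and cytotoxic lymphocytes: Cd3d, Cd3e, Cd3g, Cd8a, Gzma, Gzmb, Prf1, Nkg7, Klrd1 and Ccl5. They were chosen by symbol, as a sign of the lymphocytes that remain in leukemic marrow, and all 10 were found among the 23997 genes of the deposited table. RNA was measured by sequencing in 8 libraries of bone marrow from leukemic C57BL/6 mice. In every group the transplanted cells were marrow taken 4 days after 5-fluorouracil, a drug that kills dividing cells, and cultured with IL3, IL6 and SCF. They were transduced with AML1-ETO and Meis2 (AE+Meis2, n = 3), with AML1-ETO9a and Meis2 (AE9a+Meis2, n = 3) or with AML1-ETO9a alone (AE9a, n = 2). Lethally irradiated mice received the cells 48 hours later, and RNA was taken once leukemia had developed, at a median latency of 171, 102 and 138 days respectively. AML1-ETO joins the DNA-binding part of RUNX1 to the corepressor RUNX1T1, AML1-ETO9a is a shorter splice form of the same fusion, and Meis2 is a homeobox transcription factor. All 3 groups therefore carry a form of the fusion, and none of the 8 libraries is from normal marrow. The labels name whole marrow with no sort, and do not say whether its lymphocytes came from the graft or the host.

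T cells recognise antigen through a receptor whose variable chains sit in the membrane with the CD3 chains, and CD8 marks the T cells that kill other cells. Cytotoxic T cells and natural killer cells share a killing program, in which perforin opens the way for granzymes released from granules. In marrow filled by leukemia these lymphocytes are a minority population, so their genes are read against a large background of blast RNA. In bulk RNA, fewer cells of a type and less RNA per cell cannot be told apart.

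The values are FPKM, fragments scaled by transcript length and library size, so levels of different genes can be compared per length. The transduced genes were examined first. Runx1t1, the ETO part of the fusion, stood at 21.6 FPKM in the library labelled AE+Meis2 replicate 1, against 223 and 218 in replicates 2 and 3 and 10.3 to 26.8 in the other 5 libraries. Meis2 was 13.1, 38.2 and 81.5 FPKM in AE+Meis2, 621, 604 and 1277 in AE9a+Meis2, and 6.99 and 13.2 in AE9a. The library labelled AE+Meis2 replicate 1 therefore goes against its label: its Runx1t1 and its Meis2 were both at the level of AE9a libraries. Every direction drawn from AE+Meis2 below includes it. AE9a+Meis2 replicate 3 and AE9a replicate 1 also stood apart: 84.1% and 72.1% of 1543 genes of gene families silent in blood had a value above 0, against 3.37% to 6.61% in the other 6. In AE9a replicate 1, 24.8% of those silent genes were at or above the level of Prf1 and 7.06% at or above that of Gzmb, while for all other members and libraries the share was at most 1.36%. The table holds no read counts, so the number of fragments behind a value is not known and intervals for counting error cannot be set. From the steps between low values, AE9a replicate 1 and AE+Meis2 replicate 2 were the shallowest, at about 12.3% and 14.6% of the depth of AE9a+Meis2 replicate 2. The pan-leukocyte gene Ptprc (39.4 to 298 FPKM) and the myeloid granule gene Mpo (117 to 2484 FPKM) were present throughout.

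All 10 genes had a value above 0 in all 8 libraries. Over the libraries the median levels ran from Ccl5, at 31.2 FPKM, and Nkg7, at 26.7 FPKM, through Cd3g (5.53), Cd3d (4.20), Klrd1 (4.15), Gzma (3.67), Cd3e (3.17), Cd8a (2.91) and Gzmb (2.70) to Prf1, at 0.650 FPKM. The neighbours from Cd3g to Gzmb in this order overlapped widely in their ranges, while Ccl5 exceeded each CD3 gene in 8 of 8 libraries. Ccl5 was the highest of the 10 genes in 5 libraries and Nkg7 in 3, and Prf1 was the lowest in 7 and Gzma in 1. AE9a+Meis2 replicate 1 held the lowest value of 8 of the 10 genes, and AE9a+Meis2 replicate 3 held the highest value of 5. For Cd3d, Cd3e, Cd3g, Klrd1 and Prf1 the lowest and the highest of the 8 libraries thus belong to the same group.

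**Figure D1:**
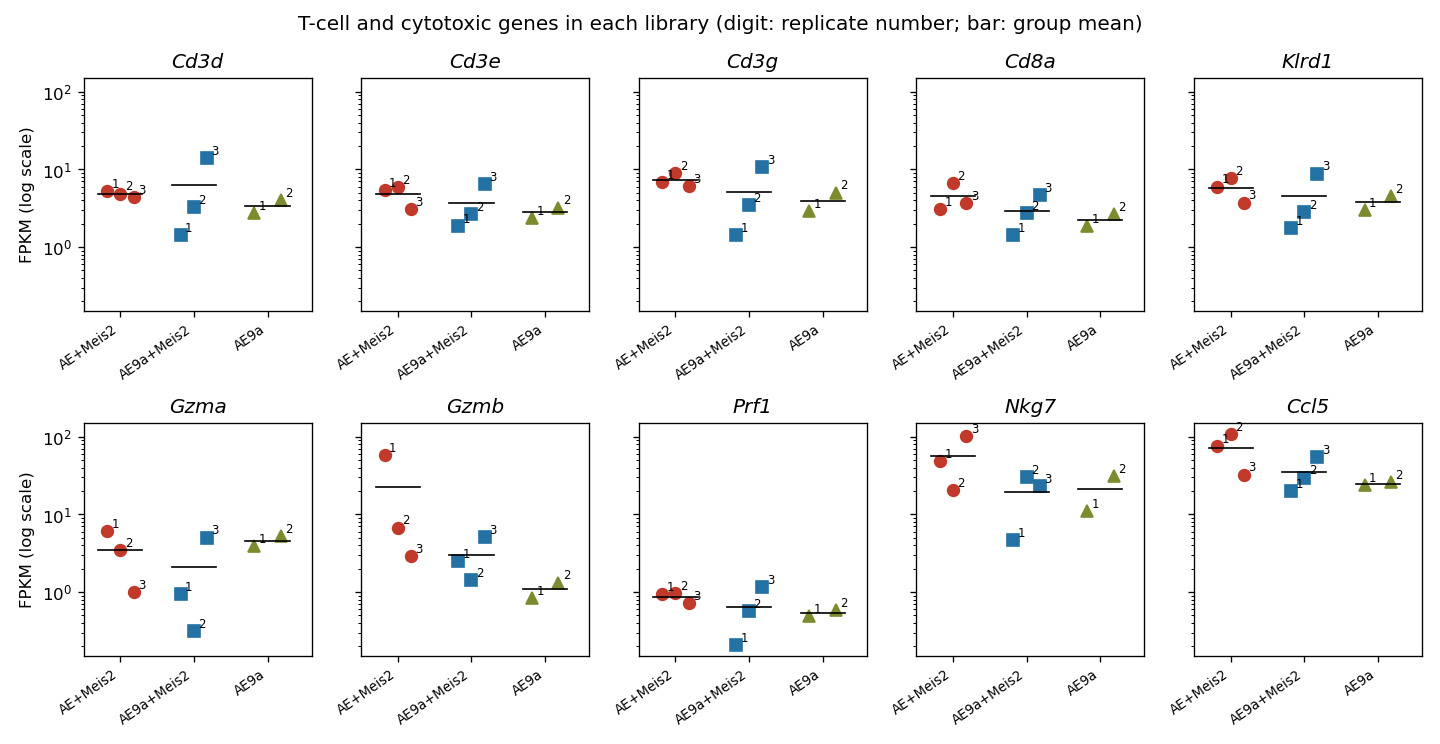
FPKM (log axis) of each of the 10 genes in each library; points are libraries, digits their replicate numbers and bars the group means. In AE9a+Meis2 the points of replicates 1 and 3 lie at opposite ends for the CD3 genes, and Gzmb of the library labelled AE+Meis2 replicate 1, at 58.3 FPKM, lies above all others.

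The CD3 chains carry the signal of the T cell receptor into the cell. Their 3 genes lie together on chromosome 9 of GRCm38.p6. Cd3g spans chr9:44969572-44980431 on the minus strand and Cd3d spans chr9:44981769-44987052 on the plus strand, so that they start 1337 bases apart and are read away from each other. Cd3e spans chr9:44998735-45009663 on the minus strand, and the 3 genes together cover 40092 bases. The annotation places an antisense gene, Gm48719, and a second transcript, Gm48720, over Cd3e, and the library kit named in the labels does not mark strand, so their fragments cannot be told from those of Cd3e.

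Cd3d was 5.23, 4.89 and 4.42 FPKM in AE+Meis2, 1.43, 3.27 and 14.0 in AE9a+Meis2, and 2.71 and 3.98 in AE9a. The AE+Meis2 libraries were close to each other (mean 4.85 ± 0.405, SD, n = 3), whereas AE9a+Meis2 held both the lowest and the highest of the 8 values, a 9.78-fold range. Cd3e was 5.44, 5.92 and 3.12 FPKM in AE+Meis2, 1.84, 2.68 and 6.51 in AE9a+Meis2, and 2.38 and 3.22 in AE9a. Cd3e varied least of the 10 genes over the libraries, 3.53-fold, and AE+Meis2 replicate 3 was below AE9a replicate 2. Cd3g was 6.90, 8.89 and 6.05 FPKM in AE+Meis2, 1.43, 3.44 and 10.6 in AE9a+Meis2, and 2.91 and 5.02 in AE9a. All 3 AE+Meis2 values of Cd3g lay above both AE9a values and inside the span of AE9a+Meis2.

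Cd8a, a chain of the CD8 coreceptor of cytotoxic T cells (chr6:71373427-71379171, plus strand), was 3.12, 6.71 and 3.66 FPKM in AE+Meis2. It was 1.42, 2.71 and 4.62 FPKM in AE9a+Meis2 and 1.87 and 2.64 in AE9a. AE+Meis2 replicate 2 was the highest and AE9a+Meis2 replicate 1 the lowest, and both AE9a libraries were below all 3 AE+Meis2 libraries. Cd8b1, the other chain of the coreceptor and not one of the 10, was 3.79, 6.53 and 4.02 FPKM in AE+Meis2, 1.62, 3.16 and 4.47 in AE9a+Meis2, and 1.37 and 2.24 in AE9a, the same order of groups. Cd4, the coreceptor of helper T cells, lay between 0.81 and 3.82 FPKM, lowest in AE9a+Meis2 replicate 1 and highest in AE9a+Meis2 replicate 3.

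Klrd1 (CD94), which pairs with NKG2 chains into receptors of natural killer cells and of some CD8 T cells, spans chr6:129588092-129598775 on the plus strand. It was 6.03, 7.66 and 3.73 FPKM in AE+Meis2, 1.75, 2.85 and 8.85 in AE9a+Meis2, and 2.9996 and 4.56 in AE9a. As with the CD3 genes, the lowest and the highest library were both AE9a+Meis2. Ncr1, a receptor that marks natural killer cells, was 3.11 FPKM in AE9a+Meis2 replicate 3 and between 0.04 and 0.79 in the other 7 libraries, and Klrb1c (NK1.1) was 4.06 FPKM there and 0.40 to 1.50 elsewhere. The same library also held the highest summed level of 14 B lineage genes, 179.7 FPKM against 84.1 to 156, and of the plasmacytoid dendritic gene Siglech, 15.8 FPKM against 0.14 to 2.83. It was thus high in genes of several lymphoid and dendritic cells at once, and their part in the CD3 and Klrd1 values was not tested.

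Perforin, encoded by Prf1 (chr10:61297751-61304684, plus strand), forms pores in the target membrane. Prf1 was 0.944, 0.967 and 0.714 FPKM in AE+Meis2, 0.205, 0.571 and 1.15 in AE9a+Meis2, and 0.487 and 0.586 in AE9a. Only AE9a+Meis2 replicate 3 reached 1 FPKM, so Prf1 did not enter the test, which asked for at least 1 FPKM in at least 2 libraries. Gzma, a tryptase-like granzyme (chr13:113093824-113100981, minus strand), was 6.05, 3.46 and 1.00 FPKM in AE+Meis2, 0.946, 0.311 and 5.02 in AE9a+Meis2, and 3.87 and 5.21 in AE9a. Values of Gzma near the bottom and the top of its 19.4-fold range occurred in both AE+Meis2 and AE9a+Meis2, while both AE9a libraries were in the upper part.

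Gzmb, the granzyme that cleaves after aspartate and triggers apoptosis, spans chr14:56258836-56262334 on the minus strand. It was 58.3, 6.78 and 2.88 FPKM in AE+Meis2, 2.51, 1.43 and 5.08 in AE9a+Meis2, and 0.840 and 1.33 in AE9a. The group means were 22.7 ± 31.0, 3.01 ± 1.87 (SD, n = 3 each) and 1.08 ± 0.343 FPKM (SD, n = 2), and the first rests on the library labelled AE+Meis2 replicate 1, at 58.3 FPKM against at most 6.78 in any other library. Gzmb had the widest spread of the 10 genes, 69.4-fold. Gzmc, Gzmd, Gzme, Gzmf and Gzmg, close relatives of Gzmb, reached at most 0.566 FPKM and each was listed at 0 in at least 3 libraries. How fragments shared between near copies were assigned is not stated in the sources at hand.

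Nkg7, a membrane protein of cytotoxic granules, spans chr7:43437138-43438246 on the plus strand. It was 48.9, 20.4 and 101 FPKM in AE+Meis2, 4.65, 30.0 and 23.3 in AE9a+Meis2, and 10.95 and 31.1 in AE9a. AE+Meis2 replicate 3 was the highest although its CD3, Cd8a, Klrd1, Prf1 and granzyme values were not, and all 3 groups overlapped. Ccl5 (RANTES), a chemokine made by cytotoxic T cells and by platelets and other cells, spans chr11:83525778-83530518 on the minus strand. It was 75.6, 109 and 32.7 FPKM in AE+Meis2, 20.2, 29.8 and 55.1 in AE9a+Meis2, and 23.7 and 26.0 in AE9a. Both AE9a libraries lay below the 3 AE+Meis2 libraries, and AE9a+Meis2 overlapped both other groups.

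The sequence just before each start site was examined because the fusion keeps the DNA-binding part of RUNX1, whose core motif is TGTGGT. The RefSeq promoter table of GRCm38.p6 held 8 of the 10 genes, all but Klrd1 and Ccl5. In the 250 bases upstream of the start, on both strands, the letters TGTGGT or ACCACA were found in 4 of the 8 (Nkg7, Prf1, Gzma and Gzmb) and in 14.0% of 32851 promoters. Below are 3 of these and, from the genes without a match, Cd3g. Each of these windows lies outside the annotated span of its own gene. Each is printed 5′ to 3′ in the direction of its gene, ending at the base before the start, with the matches in capitals. Positions are chr13:113100982-113101231 for Gzma (minus), chr14:56262335-56262584 for Gzmb (minus), chr7:43436888-43437137 for Nkg7 (plus) and chr9:44980432-44980681 for Cd3g (minus).
Gzma: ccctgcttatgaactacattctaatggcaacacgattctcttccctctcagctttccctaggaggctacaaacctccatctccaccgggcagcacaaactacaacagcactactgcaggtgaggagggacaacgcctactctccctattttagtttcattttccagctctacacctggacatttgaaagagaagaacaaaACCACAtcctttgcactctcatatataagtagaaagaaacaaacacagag
Gzmb: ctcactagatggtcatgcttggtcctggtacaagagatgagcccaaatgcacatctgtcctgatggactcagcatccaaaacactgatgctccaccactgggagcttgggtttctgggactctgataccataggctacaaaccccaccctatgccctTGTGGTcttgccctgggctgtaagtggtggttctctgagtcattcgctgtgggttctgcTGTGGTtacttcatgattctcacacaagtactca
Nkg7: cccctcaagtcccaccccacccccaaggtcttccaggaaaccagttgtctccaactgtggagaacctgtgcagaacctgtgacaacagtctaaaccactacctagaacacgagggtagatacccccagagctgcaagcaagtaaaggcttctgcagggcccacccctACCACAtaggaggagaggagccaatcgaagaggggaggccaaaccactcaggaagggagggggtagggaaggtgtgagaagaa
Cd3g: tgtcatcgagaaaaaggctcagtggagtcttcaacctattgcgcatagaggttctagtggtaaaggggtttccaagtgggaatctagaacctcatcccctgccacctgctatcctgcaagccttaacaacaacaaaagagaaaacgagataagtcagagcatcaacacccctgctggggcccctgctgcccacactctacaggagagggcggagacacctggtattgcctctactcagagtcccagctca
Gzmb held 2 matches, at -93 to -88 and at -34 to -29 from its start, Gzma 1 at -50 to -45 and Nkg7 1 at -83 to -78. The ETS letters GGAAGT or ACTTCC were found in Cd3d, Cd3e and Prf1 (19.7% of all promoters), and the GATA letters AGATAA or TTATCT in Cd3g (9.99%). The E-box CAGCTG was found in Prf1 (13.0%), and the fifth pattern searched, a pair of half-sites of the interferon-stimulated response element, in Gzma (2.98%). A match is a string of letters and shows no binding, and the data hold no binding measurement.

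The levels of 6 genes followed each other closely over the libraries. Pearson's r of log2(FPKM + 1) over the 8 libraries lay between 0.719 and 0.979 (median 0.905) for the 15 pairs among Cd3d, Cd3e, Cd3g, Cd8a, Prf1 and Klrd1, and Spearman's rho between 0.810 and 1.00. These 6 were put together after the values were seen, and all points share their libraries and depth. Without AE9a+Meis2 replicate 3, the highest library for Cd3d, Cd3e, Cd3g, Prf1 and Klrd1, r of the 15 pairs was 0.798 to 0.970. The 30 pairs that include Gzma, Gzmb, Nkg7 or Ccl5 ran from 0.0509 to 0.910, with a median of 0.531, lowest between Nkg7 and Gzma and highest between Ccl5 and Cd3e.

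**Figure D2:**
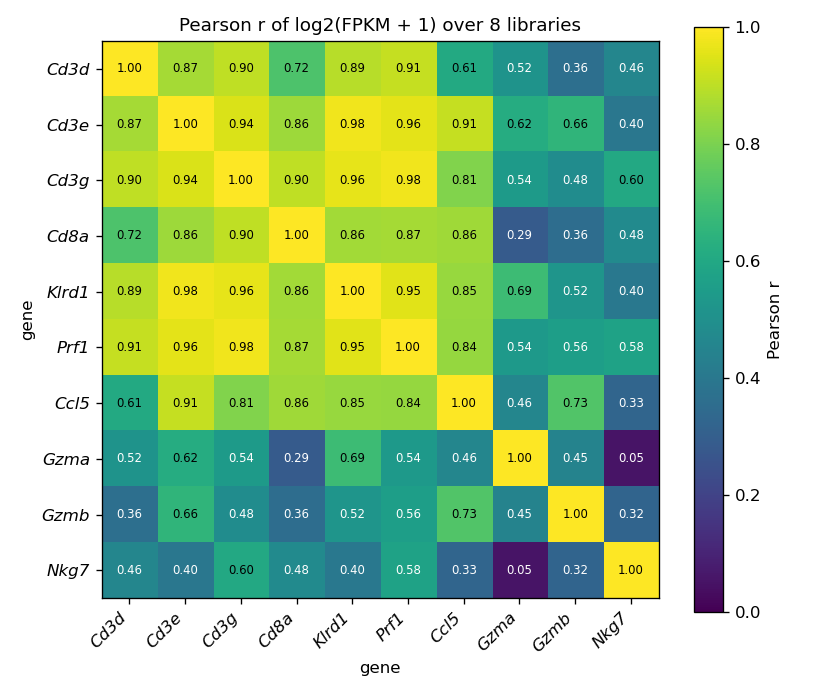
Pearson's r of log2(FPKM + 1) over the 8 libraries for each pair of the 10 genes, with genes on both axes and r as colour. The upper left block, Cd3d to Prf1, holds no value below 0.719, and the lowest value of the plot, 0.0509, is that of Nkg7 with Gzma.

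Dividing by the summed level of the CD3 genes in the same library showed which genes kept a similar proportion to T cell receptor RNA. Summed CD3 was 17.6, 19.7 and 13.6 FPKM in AE+Meis2, 4.71, 9.39 and 31.1 in AE9a+Meis2, and 7.99 and 12.2 in AE9a. Klrd1 stood at 0.274 to 0.389 of it, a range of only 1.42-fold against the 5.05-fold range of its FPKM. Prf1 stood at 0.0369 to 0.0609, a range of 1.65-fold against 5.61-fold, but its values were low. Its highest ratio was in AE9a replicate 1, where 24.8% of the silent genes were at or above Prf1 (0.487 FPKM). Cd8a ranged 2.30-fold and Ccl5 3.13-fold relative to CD3. Nkg7, Gzma and Gzmb did not keep a proportion: their ratios to CD3 ranged 9.93-fold, 14.6-fold and 31.6-fold. The ratio of Gzma was 0.484 and 0.426 in AE9a, above all 6 other libraries (0.0331 to 0.344). The ratio of Gzmb was 0.105 and 0.108 in AE9a, below all 6 others (0.153 to 3.32), and that of Nkg7 was highest, at 7.45, in AE+Meis2 replicate 3. These orders are descriptions, with no test.

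**Figure D3:**
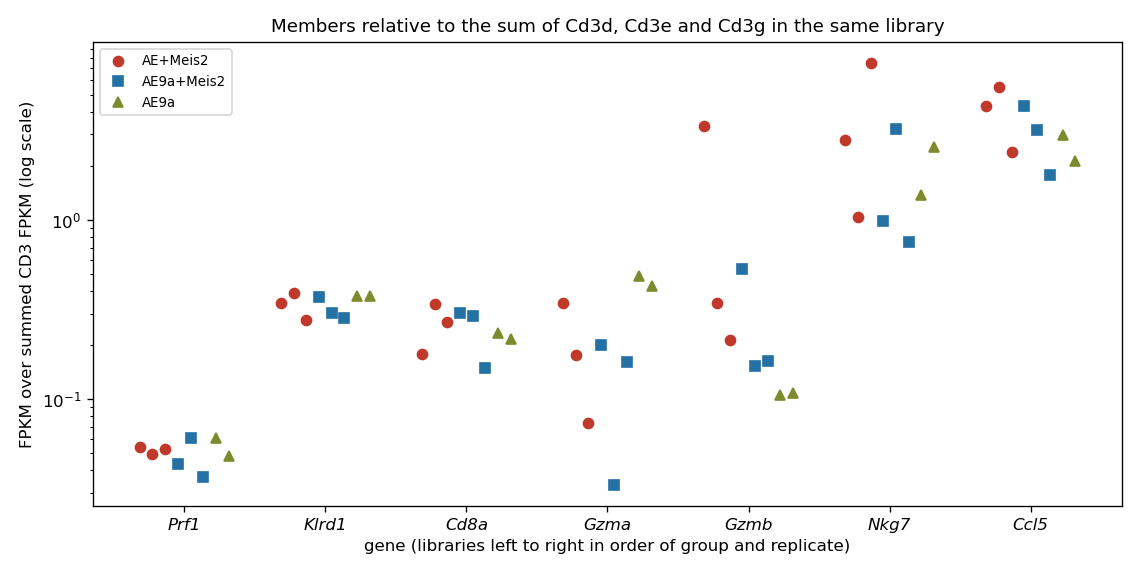
FPKM of 7 genes divided by the summed FPKM of Cd3d, Cd3e and Cd3g in the same library (log axis); points are libraries, coloured by group. Prf1 and Klrd1 stay within 1.65-fold and 1.42-fold, and the points of Gzmb spread over 31.6-fold. The FPKM of Prf1 were low, at most 1.15.

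For each tested member the 3 genes with the most similar profile were sought among 11463 tested genes. The nearest to Cd3d were Cxcr3 (r = 0.984), Il2rb (0.955) and Cd5 (0.942). Cd3e was nearest to Klrd1 (0.979), Il7r (0.973) and Lck (0.969), and Cd3g to Gimap4 (0.993), Klrd1 (0.964) and Thy1 (0.963). Klrd1 had Gimap8 (0.977) and Lck (0.975) beside Cd3e, and Cd8a had Sgms1 (0.963), Cd8b1 (0.953) and the lymphocyte cathepsin Ctsw (0.951). Most of these are known as lymphocyte genes. Gzma was nearest to the homing receptor Ccr7 (0.934), Plxna1 (0.889) and Trib2 (0.881). Gzmb was nearest to Iigp1 (0.981), an interferon-inducible GTPase that was 11.4 FPKM in the library labelled AE+Meis2 replicate 1 and at most 1.76 elsewhere, then to Tmem86b (0.959) and Phf11c (0.954). Nkg7 was nearest to Snap23 (0.969), Stap1 (0.951) and Nfu1 (0.949), and Ccl5 to the platelet gene Treml1 (0.986), Cysltr2 (0.942) and Uba7 (0.941). These r are maxima over many genes and 8 libraries, given with no test.

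Markers of other cells that can make Gzmb, Nkg7 or Ccl5 were read beside them. Mast cells, which can also hold granzyme B, were read through 10 genes of mast cells and basophils, called mast cell genes below. All 10 were above 0 in every library. Their summed levels were 1363 to 4611 FPKM in AE+Meis2, 818 to 2099 in AE9a+Meis2 and 1268 to 2621 in AE9a. The highest sum was in the library labelled AE+Meis2 replicate 1, which was also highest for Gzmb, with Cpa3 at 1875, the chymase Cma1 at 962, Tpsb2 at 191 and Mcpt4 at 189 FPKM. AE9a replicate 2, with the next highest sum of 2621 FPKM, had Gzmb at 1.33 FPKM, and r of Gzmb with the mean log2 level of the mast cell genes was 0.35. With cytotoxic granule and effector genes, members left out, r of Gzmb was 0.76, and with T cell receptor genes 0.54. AE+Meis2 replicate 2, next highest for Gzmb at 6.78 FPKM, had a sum of 1363 FPKM, in which Cpa3 (1005) and Gata2 (189) were high and Mcpt4 (0.13) and Tpsb2 (0.23) low. The order of the libraries by the sum of this list thus differed from their order by Gzmb. The part of mast cells in the value of the library labelled AE+Meis2 replicate 1 was not tested.

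Of 12 platelet and megakaryocyte genes, 11 were above 0 in every library, and Gp1bb was listed at 0 in 1. Their sum was 148, 468 and 28.8 FPKM in AE+Meis2, 34.8 to 63.8 in AE9a+Meis2 and 53.2 and 71.1 in AE9a. The libraries with the 2 highest sums were also the 2 highest for Ccl5, and r of Ccl5 with the mean log2 level of these genes was 0.86, against 0.84 with the T cell receptor list and 0.606, 0.910 and 0.811 with Cd3d, Cd3e and Cd3g. Pf4, the platelet chemokine, was 38.2, 82.4 and 5.90 FPKM in AE+Meis2, 2.56, 2.06 and 0.72 in AE9a+Meis2, and 4.97 and 6.41 in AE9a. AE9a+Meis2 replicate 3, with Ccl5 at 55.1 FPKM, had the lowest Pf4, while its Itgb3 (11.6), Gp9 (3.90) and Treml1 (6.73) were among the 3 highest of the 8 libraries and its platelet sum, 63.8 FPKM, was the highest of AE9a+Meis2. For Nkg7, the highest library, AE+Meis2 replicate 3, was also the highest for 10 blast and progenitor genes, whose sum was 6937 FPKM there and 723 to 3798 in the other 7 libraries. AE9a+Meis2 replicate 1, with a blast sum of 2346 FPKM, held the lowest Nkg7, and r of Nkg7 was 0.49 with the blast list and 0.59 with the mast cell list. With members left out, r of Nkg7 was 0.72 with the cytotoxic granule and effector list, 0.51 with NK receptors and 0.31 with the T cell receptor list. The cytotoxic list held genes far above the CD3 level, such as Srgn (901 to 2572 FPKM), highest in the library labelled AE+Meis2 replicate 1. So did the NK list, with Tyrobp at 166 to 2437 FPKM, highest in AE+Meis2 replicate 3 as Nkg7 was. These r are therefore not a measure of lymphocytes alone. The part of platelet and blast RNA in Ccl5 and Nkg7 was not tested.

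**Figure D4:**
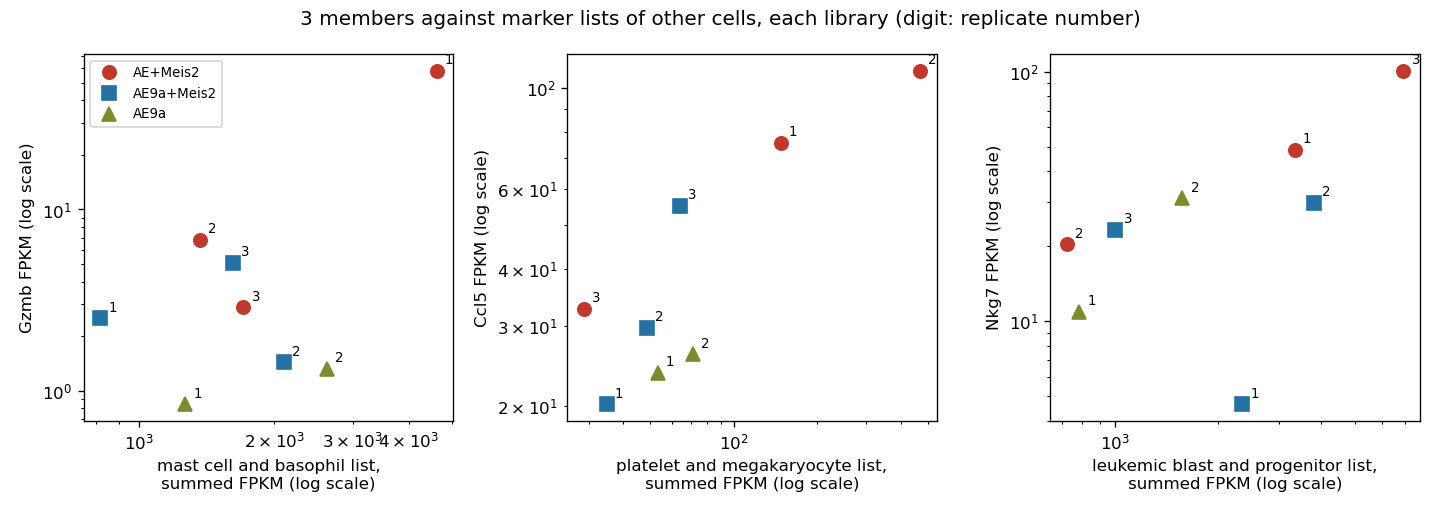
FPKM of Gzmb, Ccl5 and Nkg7 against the summed FPKM of marker lists of mast cells and basophils, of platelets and of blasts (log axes). Each point is a library, labelled with its replicate number. In each panel the library with the highest marker sum is also highest for the gene, at 58.3, 109 and 101 FPKM.

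The first comparison, AE9a+Meis2 against AE9a, asks what Meis2 adds to the truncated fusion. Of the 9 genes tested, 6 were higher and 3 lower with Meis2, where 49.8% of all genes were higher, but Cd3g turned to -0.048 when libraries were scaled to their sum without small RNAs and Klrd1 to 0.090 under quantile normalization. Their median log2 difference was 0.18 against -0.0011 over all 12565 genes tested. Klrd1 (-0.0027 ± 0.55), Cd3g (0.05 ± 0.61), Cd3e (0.18 ± 0.45), Cd8a (0.19 ± 0.43) and Cd3d (0.32 ± 0.68) all differed by less than 1 standard error, on the log2(FPKM + 1) scale that all differences use. The largest differences were those of Gzma (-1.15 ± 0.74) and Gzmb (0.85 ± 1.05), beside Ccl5 (0.36 ± 0.56) and Nkg7 (-0.27 ± 0.92). In limma with Benjamini-Hochberg adjustment 0 of the 9 passed, with adjusted p of 1 for each, and 0 had an unadjusted p under 0.05, where 0.0478% of all genes passed the adjusted and 3.06% the unadjusted threshold. In 1 of the 10 genes, Gzmb, all AE9a+Meis2 libraries lay above both AE9a libraries, while 13.1% of all genes were placed so. Without AE9a+Meis2 replicate 3, Cd3d (-0.42), Cd3e (-0.22), Cd3g (-0.56) and Cd8a (-0.11) were lower with Meis2, as was Ccl5 (-0.017), so that 1 of the 9 genes, Gzmb, was higher and 8 were lower.

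The second comparison, AE+Meis2 against AE9a+Meis2, sets the full-length fusion beside the truncated one, with Meis2 transduced in both. Meis2 itself was 13.1 to 81.5 FPKM in AE+Meis2 and 604 to 1277 in AE9a+Meis2. The form of the fusion and the level of Meis2 therefore cannot be told apart here. In log2(FPKM + 1) all 9 tested genes were higher in AE+Meis2, where 54.9% of all genes were. The mean FPKM of Cd3d was lower in AE+Meis2, 4.85 against 6.23 in AE9a+Meis2. On the log scale Cd3d turned to -0.075 when libraries were set to the same sum without small RNAs. That scaling moved the median of all genes from 0.043 to -0.18. Cd3d was also lower in AE+Meis2, at -0.45, without AE9a+Meis2 replicate 1 and, at -0.048, without AE9a+Meis2 replicate 2. The median of the 9 was 0.68. Gzmb (1.70 ± 0.94), Nkg7 (1.56 ± 0.82) and Ccl5 (0.99 ± 0.50) differed most. Cd3g (0.71 ± 0.54), Gzma (0.68 ± 0.66), Cd8a (0.52 ± 0.38), Klrd1 (0.49 ± 0.49), Cd3e (0.41 ± 0.40) and Cd3d (0.12 ± 0.61) followed. In limma with Benjamini-Hochberg adjustment 0 of 9 passed (adjusted p from 0.74 to 0.98), and 0 had an unadjusted p under 0.05, against 0.0398% and 7.15% of all genes. Groups overlapped for all 10 genes, where 13.5% of all genes had no overlap, in either direction. Without AE9a+Meis2 replicate 3, 9 of the 10 genes, all but Nkg7, had every AE+Meis2 library above the other 2 AE9a+Meis2 libraries, with a background of 10.1%, and Cd3g differed by 1.32 ± 0.37. None of the 9 tested passed limma with Benjamini-Hochberg adjustment in that fit, with 0.85 as the adjusted p of Cd3g. Leaving out the library labelled AE+Meis2 replicate 1 gave a difference of 0.56 ± 0.49 for Gzmb.

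The third comparison, AE+Meis2 against AE9a, differs in the fusion form and in Meis2 together. Each of the 3 comparisons shares its libraries with the other two, so their values are given side by side and not as separate evidence. Of the 9 tested genes 8 were higher in AE+Meis2 and Gzma was lower, where 55.9% of all genes were higher, and the median was 0.71 against 0.06 over all genes. Gzmb differed by 2.55 ± 1.05, Ccl5 by 1.35 ± 0.56, Nkg7 by 1.29 ± 0.92, Cd3g by 0.76 ± 0.61 and Cd8a by 0.71 ± 0.43. Cd3e (0.59 ± 0.45), Klrd1 (0.49 ± 0.55), Cd3d (0.44 ± 0.68) and Gzma (-0.47 ± 0.74) differed less. In limma with Benjamini-Hochberg adjustment 0 of 9 passed, at adjusted p from 0.83 to 0.97, where 0.0318% of all genes did. Gzmb and Ccl5, higher in 3 of 3 AE+Meis2 libraries than in either AE9a library, had an unadjusted limma p under 0.05, as did 5.98% of all genes. Their adjusted p in limma (Benjamini-Hochberg) was 0.83.

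In 6 of the 10 genes, Cd3d, Cd3g, Cd8a, Gzmb, Prf1 and Ccl5, every AE+Meis2 library was above both AE9a libraries. Of the 9 tested genes these were 5, and 9.96% of all genes tested were placed so, with 8.66% placed the other way. That count depends on the scaling. When libraries were set to the same sum over genes other than small RNAs, which held 8.66% to 37.9% of the summed FPKM, the median of all genes moved from 0.06 to -0.27. Then only Gzmb remained without overlap, against 2.36% of all genes higher and 20.2% lower. Without AE9a replicate 2 the count was 9, against 26.9% of all genes. Without the library labelled AE+Meis2 replicate 1, Gzmb still lay above AE9a, with 5 of the other 9 genes (17.8% of all genes did so). Gzma then lay wholly below AE9a, as did 14.9% of all genes. Gzmb differed by 1.41 ± 0.54 in that fit, with an adjusted p of 0.53 in limma with Benjamini-Hochberg adjustment.

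**Figure D5:**
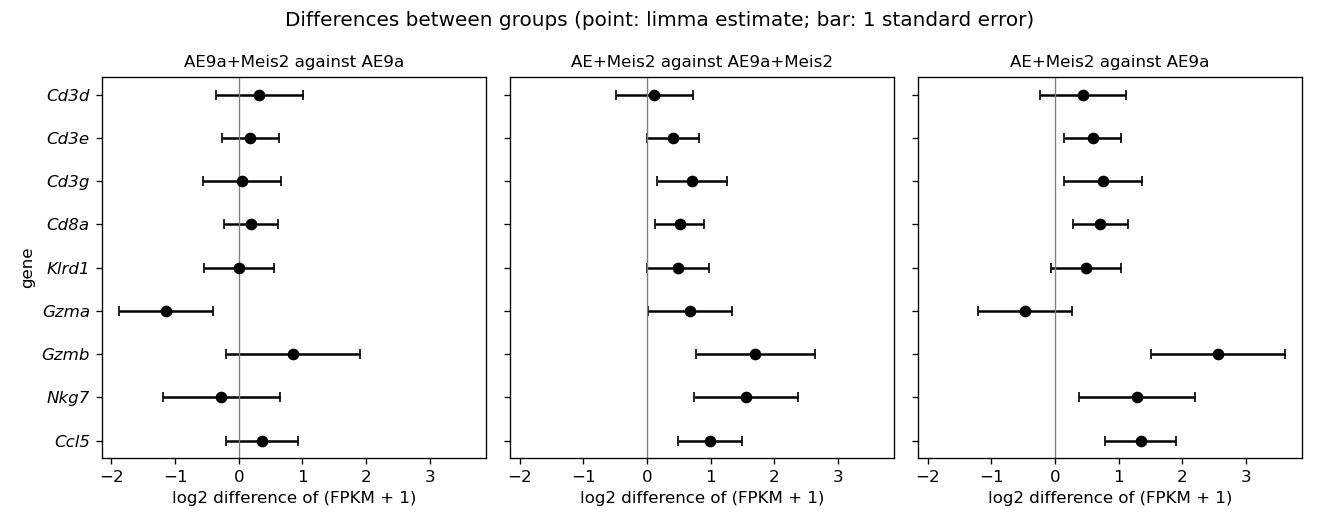
Difference of the 9 tested genes between groups in log2(FPKM + 1); points are limma estimates and bars 1 standard error, with a panel for each comparison. In the middle panel all 9 points lie right of 0, from 0.12 to 1.70, but the lowest, Cd3d, turned to -0.075 on rescaling without small RNAs and to -0.45 without AE9a+Meis2 replicate 1, and none of the 27 differences passed the adjusted threshold.

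Wider lists of genes used by lymphocytes were read in the same fit. No gene of any list passed limma with Benjamini-Hochberg adjustment in any of the 3 comparisons. Of 16 tested genes of the T cell receptor complex and its coreceptors, the CD3 genes and Cd8a included, 12 were higher in AE9a+Meis2 than in AE9a (median 0.13). In AE+Meis2, 14 of the 16 were higher than in AE9a+Meis2 (median 0.27) and 15 higher than in AE9a (0.32). Of all genes, 49.8%, 54.9% and 55.9% were higher in the 3 comparisons in turn. Rescaling to the sum without small RNAs moved the median of all genes in AE+Meis2 against AE9a+Meis2 from 0.043 to -0.18. In AE+Meis2 against AE9a it moved from 0.055 to -0.27. The lists were not read on that scale, so their counts and medians hold for the main scale only. Cd8b1 differed by 1.03 ± 0.38 between AE+Meis2 and AE9a (limma with Benjamini-Hochberg adjustment, adjusted p = 0.77). Cd247, the zeta chain of the receptor, differed by 0.39 ± 0.65 between AE+Meis2 and AE9a+Meis2. The 16 genes of receptor signalling, such as Lck and Zap70, were split: 7, 8 and 6 were higher in the 3 comparisons in turn, with medians of -0.031, -0.012 and -0.053. Lck, the kinase that starts receptor signalling, differed by 0.13 ± 0.57, 0.38 ± 0.51 and 0.51 ± 0.57.

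Transcription factors of T and NK cells were as mixed, with 7, 8 and 7 of 12 tested genes higher and medians of 0.0087, 0.098 and 0.072. Gata3, a factor of helper and early T cells, was lower in all 3 AE+Meis2 libraries (0.85 to 1.55 FPKM) than in AE9a (2.37 and 9.62 FPKM). The log2 difference was -1.40 ± 0.50, with a limma adjusted p (Benjamini-Hochberg) of 0.72. Bcl11b, which fixes T cell identity, stayed at or under 0.86 FPKM and was not tested. Of 15 tested cytotoxic granule and effector genes, 4 of the 10 members among the 22 listed, 7, 12 and 10 were higher, with medians of -0.03, 0.48 and 0.35. Gzmk exceeded its AE9a+Meis2 level in AE+Meis2 by 0.97 ± 0.41 and Ctsw by 0.93 ± 0.58, with limma adjusted p (Benjamini-Hochberg) of 0.69 and 0.77. Ifng, the cytokine of activated cytotoxic cells, was at most 1.40 FPKM and was not tested.

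Only 12 of 26 NK receptor genes reached the filter, and 8 others were listed at 0 in at least 1 library. Of the 12, 10, 6 and 10 were higher in the 3 comparisons, with medians of 0.25, 0.0048 and 0.31. Klrk1, the activating receptor NKG2D, differed by 0.65 ± 0.43 between AE+Meis2 and AE9a. Among 14 chemokine and homing genes 9, 9 and 8 were higher, with medians of 0.13, 0.14 and 0.31. Ccl3, a chemokine that myeloid cells also make, did not follow Ccl5: it was 107, 22.8 and 24.0 FPKM in AE9a+Meis2 and 0.84 and 3.06 in AE9a, a difference of 3.87 ± 0.83 with a limma adjusted p (Benjamini-Hochberg) of 0.73. Cd69, an early activation marker of lymphocytes and other leukocytes, was 20.3, 20.3 and 33.5 FPKM in AE+Meis2, 12.5, 7.07 and 16.9 in AE9a+Meis2, and 5.15 and 4.96 in AE9a. The 3 groups of Cd69 values did not overlap, and AE+Meis2 exceeded AE9a by 2.05 ± 0.38, at an adjusted p of 0.31 in limma with Benjamini-Hochberg adjustment.

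Lists of other cells were read beside these, on the same scale and with the same shares of all genes. In AE+Meis2 all 9 tested platelet genes exceeded their AE9a+Meis2 level (median 0.62) and 6 exceeded that of AE9a (0.83). Ccl5 was also higher in both of these comparisons. In AE9a+Meis2 against AE9a the directions differed: 3 platelet genes were higher and 6 lower (-0.41), while Ccl5 was higher (0.36). Of 10 mast cell and basophil genes, 6 exceeded in AE+Meis2 their level in AE9a+Meis2 (0.50) and 6 that in AE9a (0.16). Of 10 blast genes these were 5 (0.09) and 8 (0.49). Of 12 tested B lineage genes, 5 exceeded in AE+Meis2 their level in AE9a+Meis2 (-0.14) and 3 that in AE9a (-0.12). Of 10 monocyte genes all 10 were higher in AE9a+Meis2 than in AE9a (0.81) and 2 exceeded in AE+Meis2 their level in AE9a+Meis2 (-0.79). Of 10 dendritic genes 7, 4 and 3 were higher in the 3 comparisons (0.10, -0.53 and -0.50), and of 10 erythroid genes 5, 3 and 2 (-0.05, -0.52 and -0.49). Their part in the differences of the lymphocyte genes was not tested.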

How the data were processed

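The authors deposited 1 table of FPKM for 8 libraries, which was used as given. Per the labels' protocols, RNA was extracted with TRIzol and libraries were made with the Illumina TruSeq RNA kit version 2. The reads went through TopHat, Cufflinks and Cuffdiff on build mm10, per the submitters' processing notes, which give no versions, and the annotation used is not named there. Groups and replicates were read from the titles of the samples. The labels name no animal or batch, so a p-value here reflects only how much these libraries vary, which may be technical.

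The 10 genes and the marker lists were chosen with earlier results of these data known. Genes with at least 1 FPKM in at least 2 libraries (12565, with 9 of the 10) were fitted as log2(FPKM + 1) in limma 3.58.1 (R 4.3.3), with 1 coefficient per group over all 8 libraries, an intensity trend and Benjamini-Hochberg adjustment over all genes, at a threshold of 0.05. This scale understates the change of low genes, and ± is a standard error unless SD is named. All 10 genes are reported, with up to 4 genes per list of smallest p, a fixed set of lineage genes and, per tested member, the 3 genes of highest r (no predicted genes, small RNAs or receptor segments); of these the text names the ones nearest to the members. Other genes were named after their values were seen. The symbols Jchain and Adgre1 were matched as Igj and Emr1. Relative depth was taken from the most common ratio of low values between libraries, which is a rough estimate. Promoters and positions are of GRCm38.p6, from RefSeq and GENCODE.

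In data simulated from these 12565 genes, limma recovered 52.2% of genes changed by a log2 of 2 and 8.96% of those changed by a log2 of 1 for AE+Meis2 against AE9a. The shares were 56.7% and 19.4% for AE+Meis2 against AE9a+Meis2, then 47.8% and 5.97% in AE9a+Meis2 against AE9a. Python 3.11.15 with SciPy 1.17.1, NumPy 2.4.6, pandas 2.3.3 and matplotlib 3.10.9 served for the rest. The 17 alternatives per comparison cover the pseudocount (0.1), the filter (none, or 5 FPKM), the scaling, the variance trend, the libraries fitted, a replicate block and leaving out each library.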

Additional observations from a re-analysis of the deposited data

How the results depend on the processing

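Of 456 recomputed differences of the 9 tested genes, 431 kept their sign, 25 changed it, and 0 passed the adjusted threshold. Rescaling to the sum without small RNAs gave Cd3d of AE+Meis2 against AE9a+Meis2 -0.075 and Cd3g of AE9a+Meis2 against AE9a -0.048. In AE9a+Meis2 against AE9a, the pseudocount of 0.1 gave Cd3g -0.018, quantile normalization Klrd1 0.090, and leaving out AE9a+Meis2 replicate 3 and AE9a replicate 1 together Ccl5 -0.080, Cd3d -0.63, Cd3e -0.38, Cd3g -0.87 and Cd8a -0.28. Leaving out each library in turn, the ranges there were -0.017 to 0.69 for Ccl5, -0.42 to 0.90 for Cd3d, -0.22 to 0.48 for Cd3e, -0.56 to 0.57 for Cd3g, -0.11 to 0.50 for Cd8a, -0.54 to 0.38 for Klrd1 and -0.99 to 0.49 for Nkg7. They were -0.45 to 0.86 for Cd3d between AE+Meis2 and AE9a+Meis2, and -0.88 to 0.029 for Gzma between AE+Meis2 and AE9a. The cause was not tested.

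The same replicate number in AE+Meis2 and AE9a+Meis2 went with correlations of deviations of 0.011, 0.133 and -0.010, and different numbers with -0.101 to 0.083. The labels do not say whether the numbers pair the samples, and so few correlations cannot settle it. With a replicate block, Cd3d (-0.020) and Cd3g (-0.20) changed sign in AE9a+Meis2 against AE9a, and the genes called were 0 in AE+Meis2 against AE9a (4 without the block), 5 in the comparison of AE+Meis2 with AE9a+Meis2 (5) and 2 for AE9a+Meis2 and AE9a (6).

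In AE+Meis2 against AE9a 1 gene was called with no filter, 2 when only both groups were fitted, and 1 to 10 with a library left out (1 without the library labelled AE+Meis2 replicate 1). For AE+Meis2 and AE9a+Meis2 the count was 14 after rescaling and 6 to 23 with a library left out (23 without AE+Meis2 replicate 3). In AE9a+Meis2 against AE9a it was 3 without AE9a+Meis2 replicate 3 and AE9a replicate 1, and 2 to 9 with a library left out. Of the 10 genes, those without overlap in AE+Meis2 against AE9a were 1 after rescaling, where 2.36% of all genes were higher and 20.2% lower. With a library left out they were 6 to 9, and 9 without AE9a replicate 2, where 26.9% of all genes were higher and 18.8% lower. In AE+Meis2 against AE9a+Meis2 they were 9, all higher, without AE9a+Meis2 replicate 3 and AE9a replicate 1. In that setting 10.1% of all genes were higher and 9.77% lower. With a library left out they were 0 to 9, and 9 without AE9a+Meis2 replicate 3 (10.1% of all genes higher, 9.91% lower). For AE9a+Meis2 against AE9a they were 8 without AE9a+Meis2 replicate 3 and AE9a replicate 1: 1 higher (Gzmb) and 7 lower. Of all genes, 36.6% were higher and 38.8% lower there. They were 1 to 3 with a library left out. Without AE9a+Meis2 replicate 3, Gzmb was higher and Gzma and Klrd1 were lower, where 23.2% of all genes were higher and 15.2% lower. With 2 AE9a libraries, leaving 1 out assumes that the other varies like the remaining groups. The depth behind values under 1 FPKM is unknown, which bears most on Prf1 and on Gzmb in AE9a replicate 1.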

Other observations

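AE+Meis2 replicate 2, the library with the second highest summed CD3 level, held several genes of T and NK cell signalling at levels above the other libraries. They were chosen after their values were seen. Cd244, a receptor of NK and cytotoxic T cells, was 35.2 FPKM there against 2.38 to 8.29 in the other 7 libraries, and Cd247 22.9 FPKM against 2.55 to 8.72. Zbtb16, the factor of innate-like T cells, was 22.9 FPKM against 1.30 to 6.52. Other genes of the same lists were at their lowest of the 8 libraries there. Among them were Prkcq (3.11 FPKM), Tyrobp (166), Hcst (22.0), Fcer1g (128), Il18rap (6.71), Nfil3 (7.35), Runx3 (7.73) and Satb1 (3.67). The lists as a whole were thus not raised in it. The same library had the highest platelet gene sum, 468 FPKM, and was among the shallowest.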
